A study of Caenorhabditis elegans with 36 samples.

Results

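The genes described here are those whose symbol belongs to one of 7 Caenorhabditis elegans gene classes named for early embryonic expression or function, or that hold many genes of that kind. They are sdz (SKN-1-dependent zygotic), vet (very early transcript), pes (patterned expression site), tbx (T-box transcription factors), skr (Skp1-related), end (endoderm determining) and med (GATA-type factors acting in the founder of mesoderm and endoderm). A gene was taken by its symbol, with no threshold on a measured value, and the classes were chosen with earlier results of these data known. The count table held 89 such genes among 27782 identifiers, namely 33 sdz, 3 vet, 10 pes, 19 tbx, 20 skr, 2 end and 2 med genes. All are annotated as protein-coding. The symbols pes-2.1, sdz-25 and tbx-30 are each carried by a pair of identifiers, and these genes are written with their identifier.

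In the C. elegans embryo, the first divisions run on RNA and protein laid down by the mother, and transcription from the embryo's own genome begins within the first few divisions. The maternal factor SKN-1 turns on the med genes in the cell called EMS, and the med genes then act through the end genes in the cell that founds the intestine and through tbx-35 in the cell that founds much of the mesoderm. Other T-box factors act in pharyngeal muscle, body wall muscle and skin precursors. The skr genes encode relatives of Skp1, the adaptor that joins F-box proteins to the cullin of SCF ubiquitin ligases, and some of them act in the germ line and in adult tissues as well. Day 1 adult hermaphrodites carry embryos in the uterus, so RNA from whole worms holds RNA of the mother, of her germ line and of her embryos.

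The samples were whole N2 (wild-type) worms at day 1 of adulthood, 4 libraries a group, about 3000 worms a sample, exposed from the L1 larval stage. All groups, controls included, grew with 10 µM 5-FU (5-fluorouracil, which blocks thymidylate synthesis), 2 mM IPTG and carbenicillin, labelled as 25 mg/mL. Worms had been kept at 20 °C on OP50 bacteria and were fed HT115 bacteria carrying an empty vector during the exposure, except in the dhod-1 RNAi group, whose HT115 bacteria carried the dhod-1 RNAi construct. Batch 1 held DMSO (the solvent control), 31.5 µM Terbinafine (an inhibitor of squalene epoxidase), 250 µM Miglustat (an inhibitor of glucosylceramide synthase), 500 µM BAY2402234 and 500 µM Brequinar, and the dhod-1 RNAi group, which was also given DMSO. Batch 2 held its own DMSO, 50 µM Doxycycline (a tetracycline that blocks translation in bacteria and mitochondria) and 250 µM Teriflunomide. The product of dhod-1 is dihydroorotate dehydrogenase, which makes pyrimidines in mitochondria, and BAY2402234, Brequinar and Teriflunomide inhibit that enzyme. Each treatment was compared with the DMSO of its batch, so treatments of a batch share their control libraries, and values of different batches were scaled apart.

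Library totals ran from 19253276 to 20455600 counts over the 36 libraries. Principal components were taken over genes that reached a minimum mean count over the 36 libraries, with the batches scaled together. On the first component (63.1% of the variance) the 4 Doxycycline libraries lay apart, at 202 to 207. DMSO replicate 1 of batch 2 lay at 61.7 while the other 3 lay between -26.8 and -18.6, and BAY2402234 replicate 1 lay at 18.1 while the other 3 lay between -45.6 and -30.1. On the second component (12.6%), the values of dhod-1 RNAi replicates 3 and 4 were 78.8 and 97, higher than the 44 and 44.4 of the first pair. The counts of called genes that rest on these libraries are given with and without them, as are the named genes whose call changed or whose fold change moved by more than 1.5 times. The targeted gene, dhod-1, was at 58.1, 78.5, 68.2 and 70.8 CPM (read counts scaled to a common library size) under dhod-1 RNAi against 82.7, 79.8, 90.3 and 81.4 in DMSO, all 4 libraries below the lowest DMSO library. The RNAi construct itself can add dhod-1 sequence to such counts, and whether it did was not tested. A lower dhod-1 level was not particular to the RNAi group. All BAY2402234 libraries (56.36, 63.31, 68.24 and 58.48 CPM) lay below the DMSO libraries too. All Doxycycline libraries (56.75, 56.85, 53.14 and 52.59 CPM) lay below those of DMSO in batch 2 (87.89, 78.45, 93.83 and 73.3 CPM).

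Levels within the 89 genes spanned a wide range in DMSO worms of batch 1. Set per kilobase of exon, the highest were skr-2 at 233.5 ± 12.04 and skr-1 at 212.6 ± 12.9 CPM per kilobase (SD, n = 4), the closest Skp1 relatives and the core adaptors of the worm's SCF ligases. Next came pes-9 at 137.3 ± 14.1 and skr-7 at 88.6 ± 18.1 CPM per kilobase, and the levels of skr-1 and skr-2 differed by less than the sum of their SDs. The highest T-box gene was tbx-9 at 23.04 CPM per kilobase, in place 16 of the 89. The regulators at the top of the endoderm cascade were near the limit of detection: end-3 had 18 counts over the 4 DMSO libraries of batch 1, and med-1 had no more than 3 in any group. Over all groups, 73 of the 89 genes passed the filter on low counts in batch 1 and 56 in batch 2, and the others were described by their counts. A gene low in DMSO can pass through a treated group where it is high, so tested genes at low DMSO levels lean towards rises.

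Several of these genes lie side by side on the WBcel235 genome. The pair skr-2 and skr-1 lies on chromosome I from 9469654 to 9472641 with 912 bases between them. The pair tbx-9 and tbx-8 lies on chromosome III from 10340006 to 10349740, on opposite strands. On chromosome IV, skr-13, skr-9, skr-8 and skr-12 lie between 17162097 and 17167792, on chromosome V skr-14 and skr-7 between 4421069 and 4423011, and on the X chromosome skr-20, skr-19 and skr-21 between 13223016 and 13226664. The sdz-10 and sdz-9 genes lie 102 bases apart on chromosome II. Near-identical neighbours and copies (the skr clusters, the sdz-25, tbx-30 and pes-2.1 pairs, med-1 with med-2, tbx-37 with tbx-38) may have had reads divided between them or dropped, and their separate values are uncertain to that extent. Exons of skr-5 overlap lsy-27 on the other strand by 59 bases, those of tbx-7 overlap cyk-3 by 28 and those of tbx-38 overlap srd-74 by 29. Whether counting used the strand is not given in the sources used here, so reads of such a pair cannot be told apart there.

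**Figure D1:**
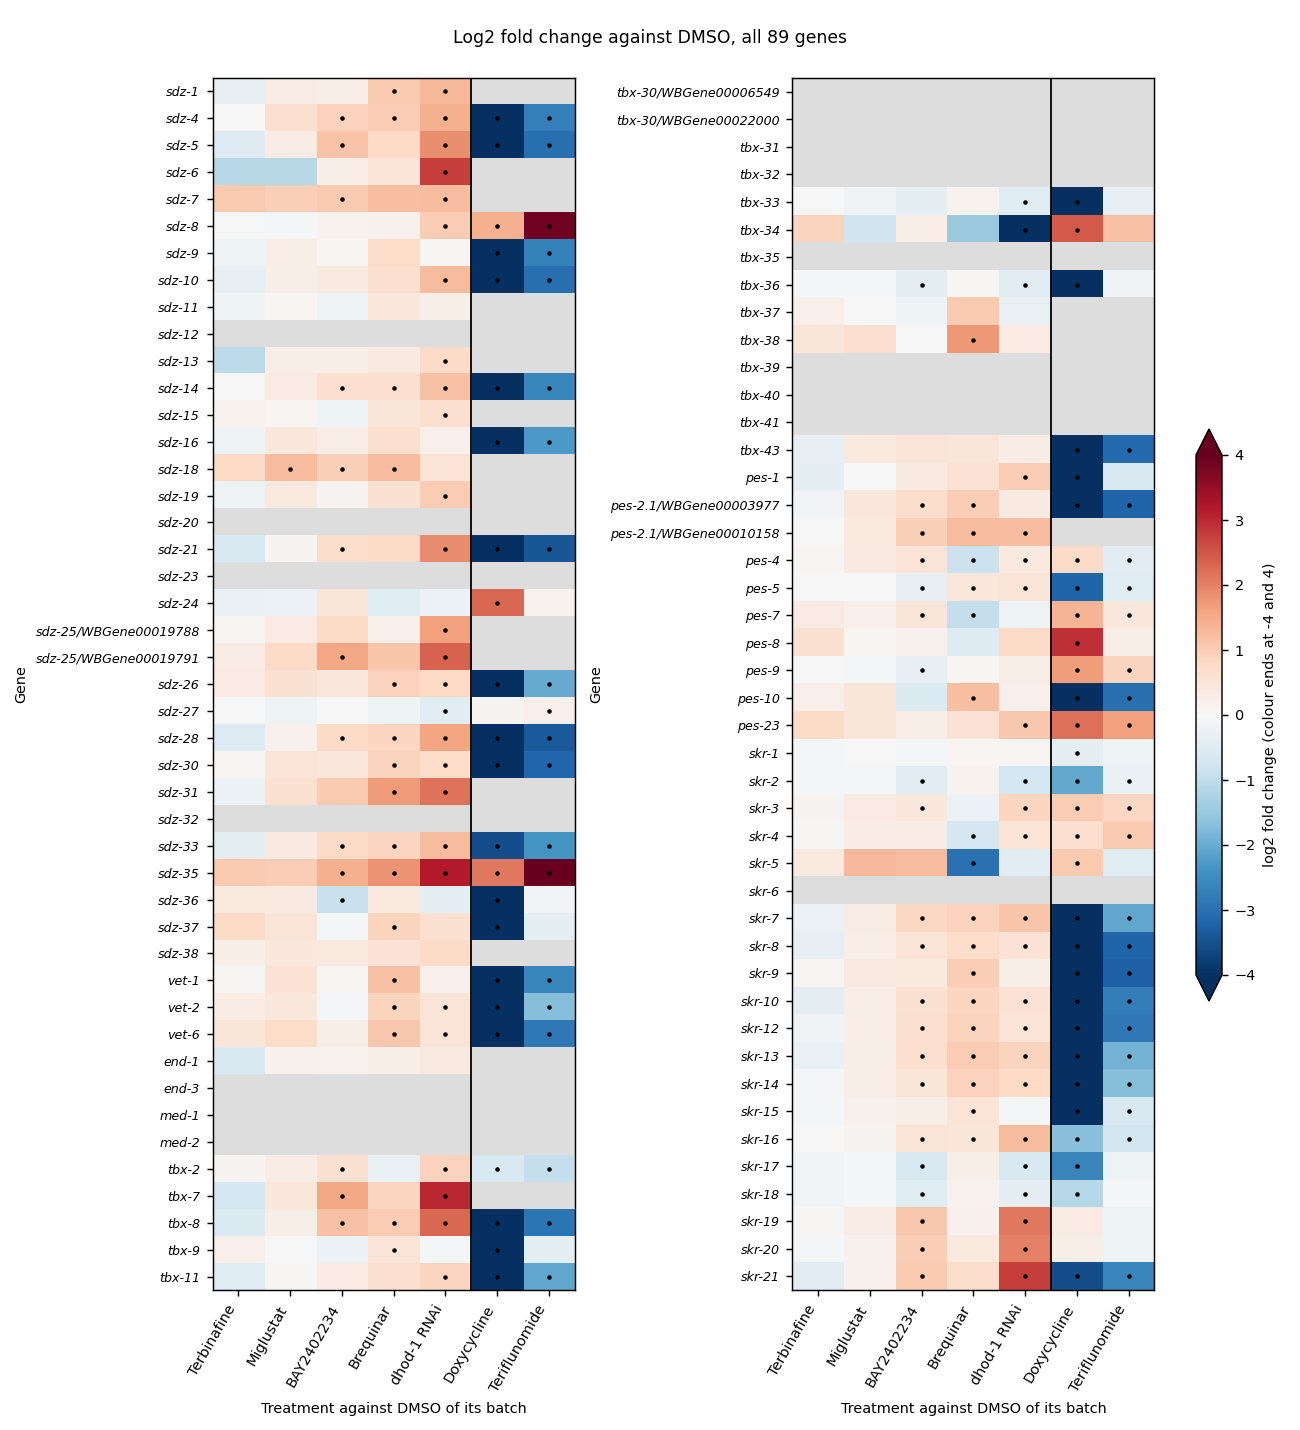
Log2 fold change of each of the 89 genes (rows, by class) in the 7 comparisons with DMSO (columns), with colours ending at -4 and 4, grey for genes that were not tested and a dot for an adjusted p below 0.05. The Terbinafine column has no dots and the Miglustat column has 1, the BAY2402234, Brequinar and dhod-1 RNAi columns hold mainly higher values, and the Doxycycline and Teriflunomide columns mainly lower ones.

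In worms given Terbinafine, no tested gene of these classes was called. Of 73 tested, 0 were higher and 0 lower, where 0.68% of all 15142 genes tested were higher and 0.218% lower. At an unadjusted p under 0.05 there were 10, and DESeq2 called 0, with 9 at an unadjusted p under 0.05. The median log2 fold change of the 73 was -0.02, and that of all genes 0.01. Among those with the smaller unadjusted p-values were vet-2 at 0.31 and vet-6 at 0.48 log2 above DMSO, neither past the adjusted threshold.

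In worms given Miglustat, sdz-18 was the 1 tested gene that was called. It was at 0.818, 1.22, 1.12 and 1.31 CPM under Miglustat against 0.452, 0.505, 0.418 and 0.467 CPM in DMSO, every treated library above every control. The log2 fold change was 1.26 (SE 0.23, adjusted p = 0.00704). This made 1.37% of the 73 genes tested, where 0.436% of all genes were higher and 0.145% lower. The call was lost when the fit held those groups alone (adjusted p = 0.0937, with the same log2 fold change of 1.26). At an unadjusted p under 0.05 there were 11 of the 73, and DESeq2 called 2, the other being vet-6 at 0.72 (adjusted p = 0.045). The median of the 73 was 0.28, against 0.01 for all genes.

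Under BAY2402234, the skr class had the largest share of genes that rose (57.9% of those tested), and the vet genes stayed near their DMSO level. Of 73 tested, 28 were higher (38.4%, where 23.2% of all genes were) and 7 lower (9.59%, where 23.6% of all genes were), with a median of 0.38 against 0.10 for all genes. By class, 11 of 19 skr genes rose and 3 fell, 10 of 29 sdz genes rose and 1 fell, 4 of 10 pes genes rose and 2 fell, and 3 of 11 tbx genes rose and 1 fell. None of the 3 vet genes was called, and neither was end-1, a GATA factor that specifies endoderm (log2 fold change 0.13). Without replicate 1, the BAY2402234 library that stood apart, 36 genes were called, 32 higher and 4 lower, and 32 of the 36 were among those called with all libraries. The share of all genes called was then 38.3%, against 46.8% with all libraries.

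The skr genes under BAY2402234 moved in both directions. In skr-7, a Skp1 relative, the BAY2402234 libraries were at 67.3, 105.6, 115.2 and 82.5 CPM and the DMSO libraries at 40.5, 58.8, 45.3 and 62.7 CPM, without overlap. The rise was 0.84 log2 (SE 0.22, adjusted p = 0.00398). The X-linked neighbours skr-19 (1.07, adjusted p = 0.000543), skr-21 (1.04, adjusted p = 0.00788) and skr-20 (0.98, adjusted p = 0.00179) rose by similar amounts. The genes that fell were skr-17 by 0.64, skr-18 by 0.49 and skr-2 by 0.42 on the log2 scale (adjusted p = 0.000402, 0.00032 and 0.0087). For skr-2 the treated libraries were at 127, 138.3, 143.7 and 119.4 CPM against 178.2, 188.6, 174.8 and 166.5 CPM in DMSO. Its neighbour skr-1 was not called, at -0.04. The rise of skr-3, which acts with the cullin CUL-6 in the intracellular pathogen response, was 0.43 (adjusted p = 0.043) and was lost on leaving out any of 5 single libraries, with adjusted p up to 0.146.

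Among the embryonic regulators under BAY2402234, tbx-8 was at 4.28, 5.24, 4.38 and 7.03 CPM against 2.06, 2.78, 1.94 and 2.44 CPM in DMSO. Its product acts redundantly with TBX-9 in shaping muscle and skin of the embryo, and it rose by 1.18 log2 (SE 0.34, adjusted p = 0.00719) without overlap of libraries. The neighbouring tbx-9 was not called (-0.25, adjusted p = 0.0935). Beside tbx-8, the largest rises were those of sdz-25/WBGene00019791 (1.55, adjusted p = 0.00366), tbx-7 (1.54, adjusted p = 0.00568), sdz-35 (1.43, adjusted p = 0.0177) and sdz-5 (1.13, adjusted p = 0.00667), all at low levels apart from sdz-5, which went from between 6.68 and 11.8 CPM to between 12.98 and 24.8 CPM. In tbx-2, needed for pharyngeal muscle from the ABa lineage, the rise was 0.61 (adjusted p = 0.016) and was lost without DMSO replicate 2 (0.52, adjusted p = 0.0577). In sdz-28 the rise was 0.78 (adjusted p = 0.02), lost without any of 4 single libraries. Falls were seen in sdz-36 (-0.90, adjusted p = 0.0173), pes-9 (-0.33, adjusted p = 0.00927), pes-5 (-0.32, adjusted p = 0.00786) and tbx-36 (-0.38, adjusted p = 0.0345). The call of sdz-36 was lost without DMSO replicate 1, BAY2402234 replicate 1 or BAY2402234 replicate 4 (adjusted p up to 0.0733) and with DESeq2 (adjusted p = 0.056). That of tbx-36 was lost without any of 5 single libraries (DMSO replicates 1 and 2 and BAY2402234 replicates 1, 2 and 3, adjusted p up to 0.0987) and with the stricter count filter (-0.23, adjusted p = 0.174). That of pes-9 was lost without DMSO replicate 3 (adjusted p = 0.0685) and with the stricter filter (-0.19, adjusted p = 0.0968).

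In Brequinar-treated worms, all 3 vet genes rose, and most of the other changes were rises too. Of 73 genes tested, 30 were higher (41.1%, where 5.03% of all genes were) and 4 lower (5.48%, where 10.6% of all genes were), with a median of 0.65 against 0.01 for all genes. By class, 11 of 29 sdz genes rose and none fell, 9 of 19 skr genes rose and 2 fell, 4 of 10 pes genes rose and 2 fell, and 3 of 11 tbx genes rose and none fell. The total of 34 dropped to 19 without DMSO replicate 1, to 21 without DMSO replicate 3 and to 22 without Brequinar replicate 4. In the same fits the share of all genes called dropped from 15.7% to 7.47%, 9.69% and 8.99%. All of the 19, 21 and 22 genes called were among the 34.

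Among the very early transcripts, vet-1 was at 16.7, 15.97, 14.7 and 15.9 CPM under Brequinar and at 6.73, 8.94, 5.75 and 6.39 CPM in DMSO. Every Brequinar library lay above every DMSO library, a rise of 1.18 log2 (SE 0.17, adjusted p = 8.78e-05). For vet-2 the values were 33.8, 38.2, 34.9 and 35.96 CPM against 18.4, 23.3, 15.95 and 19.9 CPM (0.88, SE 0.14, adjusted p = 0.000159). For vet-6 they were 18.1, 22.2, 19.96 and 21.2 CPM against 9.89, 12.8, 6.54 and 9.61 CPM (1.07, SE 0.21, adjusted p = 0.00134). Summed, the 3 vet genes made 71.9 CPM under Brequinar and 36.1 CPM in DMSO.

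Other genes of the early embryo went the same way under Brequinar. The T-box gene tbx-38, which acts redundantly with tbx-37 in mesoderm from the ABa lineage, was at 1.39, 1.54, 1.63 and 1.29 CPM against 0.301, 0.657, 0.366 and 0.415 CPM in DMSO (1.73, SE 0.35, adjusted p = 0.00173). Its partner tbx-37 was at 1.45, 0.975, 0.986 and 1.13 CPM against 0.452, 0.758, 0.418 and 0.571 CPM, without overlap, and missed the threshold (1.04, adjusted p = 0.0512). The call of tbx-37 depended on the fit. It passed with DESeq2's size factors in edgeR (adjusted p = 0.0489), with those groups alone (adjusted p = 0.021) and without DMSO replicate 2 (adjusted p = 0.0416). In tbx-9 the libraries lay at 29.4, 30.5, 32.4 and 31.9 CPM against 21.9, 21.3, 22.4 and 21.5 CPM, a rise of 0.51 (adjusted p = 0.00592). The rise of skr-7 was 0.91 (adjusted p = 0.00675), with Brequinar libraries between 77.8 and 117.3 CPM. The smaller genes sdz-18 (1.24, adjusted p = 0.000753), sdz-35 (1.80, adjusted p = 0.0111), pes-2.1/WBGene00010158 (1.25, adjusted p = 0.0158) and sdz-31 (1.71, adjusted p = 0.0448) rose as well. The call of sdz-31 was lost on leaving out 6 of the 8 libraries singly (its value was 2.35 without DMSO replicate 2), that of sdz-35 without Brequinar replicate 3 (adjusted p = 0.0646) and that of pes-2.1/WBGene00010158 without DMSO replicate 1 (adjusted p = 0.0614).

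The T-box gene tbx-8 (1.00, adjusted p = 0.0477), sdz-28 (0.86, adjusted p = 0.0312) and pes-10, an early zygotic transcript whose minimal promoter is used in reporter genes (1.19, adjusted p = 0.035), also passed the threshold under Brequinar. Each of these calls was lost on leaving out any of 4 or more single libraries. Of pes-10, the Brequinar libraries were at 5.22, 5.75, 4.73 and 5.81 CPM and the DMSO libraries at 2.01, 4.14, 0.941 and 2.34 CPM, and without DMSO replicate 3 its rise was 0.92 (adjusted p = 0.116). In tbx-8 the Brequinar libraries ran from 1.95 to 7.20 CPM and overlapped those of DMSO. For end-1 the log2 fold change was 0.28 (adjusted p = 0.531).

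Falls under Brequinar were found in 4 genes. In pes-7, which encodes a protein related to IQGAP scaffolds, the libraries were at 20.1, 19.1, 18.6 and 17.5 CPM against 41.7, 28.6, 35.8 and 37.9 CPM in DMSO, a fall of 0.94 log2 (SE 0.14, adjusted p = 0.000116). In pes-4 they were at 16.4, 13.1, 16.4 and 14.5 CPM against 29.5, 25.8, 27.8 and 26.4 CPM (-0.86, SE 0.15, adjusted p = 0.000523). Both genes were without overlap between the groups. The fall of skr-4 was 0.67 (adjusted p = 0.0184), lost without DMSO replicate 3 (adjusted p = 0.0706) or without Brequinar replicate 2 (adjusted p = 0.0658). The other Skp1 relative that fell, skr-5, had counts so low that a ratio is given: it was 9.56 times lower (95% counting interval 2.31 to 84.6), and its call was lost without any of 6 of the 8 libraries.

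**Figure D2:**
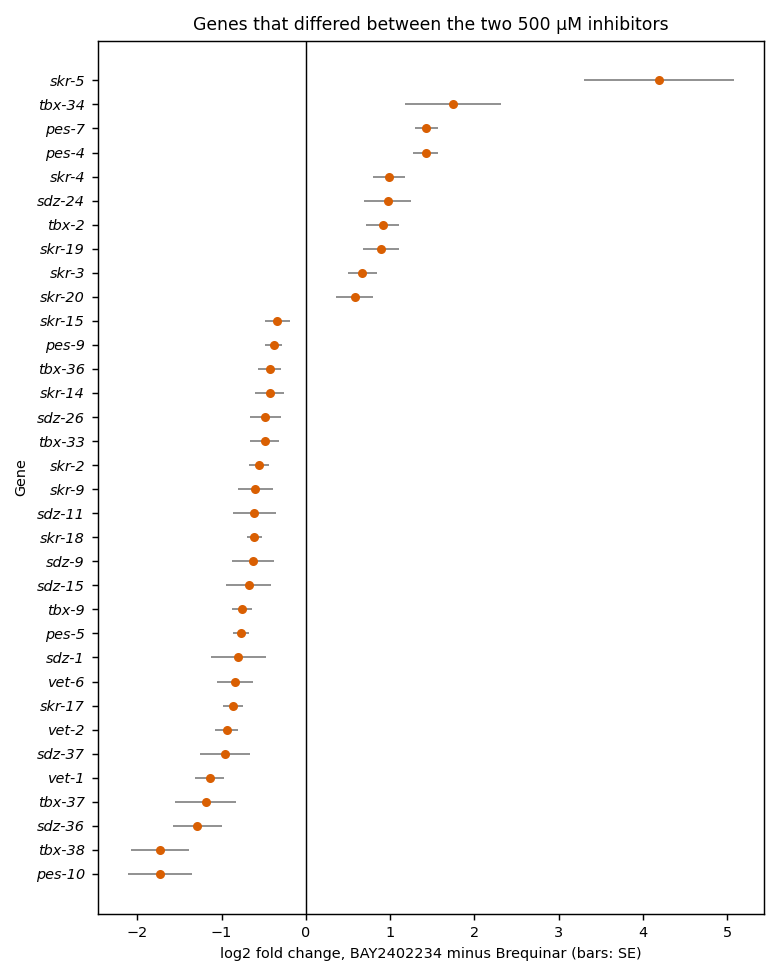
Log2 difference between BAY2402234 and Brequinar (BAY2402234 minus Brequinar, points, with bars for the standard error) for the 34 genes called in that direct contrast. The 10 genes on the right, led by skr-5, tbx-34, pes-7 and pes-4, were higher under BAY2402234, and the 24 on the left, among them the 3 vet genes, were lower.

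Set against each other at the same labelled dose of 500 µM, the inhibitors BAY2402234 and Brequinar differed in 34 of the 73 genes. Of these, 10 were higher under BAY2402234 (13.7%, where 33.2% of all genes were) and 24 lower (32.9%, where 30.2% of all genes were), with a median of -0.26 against 0.16 for all genes. It was the 1 pair of compounds in the series with matched dose and batch, and its p-values were adjusted over all genes tested. The contrast without BAY2402234 replicate 1 called 25 genes, 9 higher and 16 lower, all of them among the 34. It called 52% of all genes, against 63.4% with all libraries. Genes singled out here beyond the chosen panel were those with the larger differences, picked after their values were seen.

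The 3 vet genes were all lower under BAY2402234 than under Brequinar. The difference was -1.14 in vet-1 (SE 0.17, adjusted p = 9.02e-06), -0.94 in vet-2 (SE 0.14, adjusted p = 5.47e-06) and -0.84 in vet-6 (SE 0.21, adjusted p = 0.00139). The T-box genes tbx-38 (-1.73, adjusted p = 0.000199), tbx-37 (-1.19, adjusted p = 0.00635) and tbx-9 (-0.76, adjusted p = 1.7e-05) and the early transcript pes-10 (-1.73, adjusted p = 0.000569) were lower under BAY2402234 as well. For pes-10 the BAY2402234 libraries were at 1.23, 1.88, 1.61 and 1.74 CPM, all below the 4 Brequinar libraries. In the same contrast 36 of 39 maternal embryo factors, 34 of 38 oocyte and germ line genes and 14 of 16 eggshell genes were lower under BAY2402234, and their part in these differences was not tested.

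The genes higher under BAY2402234 than under Brequinar were led in evidence by pes-7 (1.43, SE 0.14, adjusted p = 4.15e-08) and pes-4 (1.42, SE 0.15, adjusted p = 1.09e-07). Both had risen against DMSO under BAY2402234 (0.49, adjusted p = 0.00584, and 0.56, adjusted p = 0.00403) and had fallen under Brequinar. The BAY2402234 libraries of pes-7 were at 64.6, 39.6, 44.7 and 54.03 CPM, and those of pes-4 were at 40.9, 39.1, 39.8 and 41.5 CPM. The Skp1 relatives skr-4 (0.99, adjusted p = 0.00013), skr-19 (0.89, adjusted p = 0.00106) and skr-3 (0.67, adjusted p = 0.0022) were higher under BAY2402234 too, and skr-5 was 22.5 times higher (95% counting interval 5.91 to 191). No difference was called in tbx-8 (0.19, approximate 95% interval -0.44 to 0.82), skr-7 (-0.07, -0.49 to 0.34), sdz-28 (-0.08, -0.59 to 0.43), end-1 (-0.16, -0.72 to 0.41) or skr-21 (0.34, -0.22 to 0.91). For skr-1 the difference was -0.11 (-0.22 to -0.0038, adjusted p = 0.0794), and DESeq2 called it (-0.12, adjusted p = 0.032).

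Under dhod-1 RNAi, 20 of 29 sdz genes rose, and so did the skr genes of the X-linked cluster. Of 73 genes tested, 43 were higher (58.9%, where 31.3% of all genes were) and 7 lower (9.59%, where 30.1% of all genes were), with a median of 0.63 against -0.02 for all genes. The sdz genes had a median of 1.03 with 1 fall, 12 of 19 skr genes rose and 3 fell, 5 of 10 pes genes rose and none fell, 4 of 11 tbx genes rose and 3 fell, and 2 of 3 vet genes rose. With RNAi replicates 1 and 2 alone, an alternative chosen after seeing the data, 32 genes were called, 27 higher and 5 lower, and 31 of them were among the 50. That fit called 32.9% of all genes, against 61.4% with all libraries.

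The X-linked neighbours skr-19, skr-20 and skr-21 had some of the largest rises under dhod-1 RNAi. In skr-21 the RNAi libraries were at 62.6, 59.9, 105.6 and 127.9 CPM against 12.4, 13.7, 10.9 and 14.8 CPM in DMSO, a rise of 2.78 (SE 0.30, adjusted p = 3.25e-07). In skr-19 they were at 86.3, 76.2, 129.9 and 150.6 CPM against 26.2, 23.8, 23.9 and 29.2 CPM (2.1, SE 0.21, adjusted p = 1.35e-07), and in skr-20 the rise was 2.03 (SE 0.23, adjusted p = 2.93e-07). In both skr-21 and skr-19 the higher values were those of replicates 3 and 4, and replicates 1 and 2 were also above every DMSO library. Smaller rises were found in skr-7 (1.12, adjusted p = 0.000189) and skr-3 (0.86, adjusted p = 0.000232). The more abundant skr-2 fell by 0.69 (SE 0.12, adjusted p = 8.44e-05), with libraries at 136.6, 137.5, 90.0 and 76.3 CPM. It was joined by skr-17 (-0.62, adjusted p = 0.000216) and skr-18 (-0.40, adjusted p = 0.000752), while skr-1 was not called (0.05, adjusted p = 0.397). With replicates 1 and 2 alone the falls were smaller, -0.37 in skr-2 (adjusted p = 0.000686) and -0.34 in skr-17 (adjusted p = 0.00585), and skr-21 rose by 2.24 (adjusted p = 3.56e-05). Not called with all libraries (-0.41), skr-5 passed as a fall in that subset (-2.98, SE 1.15, adjusted p = 0.0498). It had 19 counts over the DMSO libraries.

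Among T-box genes under dhod-1 RNAi, tbx-8 was at 7.95, 8.03, 13.6 and 16.4 CPM against 1.94 to 2.78 CPM in DMSO, a rise of 2.31 (SE 0.34, adjusted p = 6.74e-06). In tbx-7 the libraries were at 2.14, 2.78, 4.44 and 5.63 CPM against 0.552, 0.253, 0.366 and 0.675 CPM (3.01, SE 0.41, adjusted p = 2.79e-06), and the value was 2.4 with replicates 1 and 2 alone. For tbx-2 the rise was 0.93 (adjusted p = 0.000407), and 0.55 (adjusted p = 0.049) with replicates 1 and 2 alone. The gene tbx-34 went the other way, with 4 counts over the RNAi libraries against 67 over the DMSO libraries (-3.98, SE 0.77, adjusted p = 0.000166), or -4.78 with replicates 1 and 2 alone. The falls of tbx-33 (-0.47, adjusted p = 0.0207), tbx-36 (-0.46, adjusted p = 0.0088) and sdz-27 (-0.43, adjusted p = 0.00768) were lost with replicates 1 and 2 alone (-0.16, adjusted p = 0.432, -0.19, adjusted p = 0.287, and -0.21, adjusted p = 0.235).

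Among the sdz genes tested under dhod-1 RNAi, the largest rises were in genes at low levels. The DMSO level of sdz-35 lay under what the filter asks, so it was tested through groups where it was high. The filter thus favours large rises among genes at low DMSO levels. In sdz-35 the RNAi libraries were at 1.10, 1.32, 1.66 and 2.05 CPM against 0.201, 0.202, 0.0523 and 0.208 CPM (3.16, SE 0.43, adjusted p = 2.92e-06). In sdz-6 they were at 2.20, 2.14, 2.91 and 2.96 CPM against 0.201, 0.556, 0.314 and 0.415 CPM (2.76, SE 0.46, adjusted p = 3.38e-05). A gene with higher counts, sdz-28, was at 28.4, 27.95, 46.3 and 50.1 CPM against 10.9, 14.9, 9.62 and 15.4 CPM (1.59, SE 0.27, adjusted p = 3.91e-05). All 3 genes were free of overlap. The forkhead gene pes-1 rose by 1.03 (adjusted p = 0.00199), a call that was lost with replicates 1 and 2 alone (0.46, adjusted p = 0.201). The same subset ended the call of skr-4 (0.55, adjusted p = 0.0123, against 0.36, adjusted p = 0.213), which was also lost without DMSO replicate 2 (adjusted p = 0.0621) or RNAi replicate 4 (adjusted p = 0.0535). Of the very early transcripts, vet-2 rose by 0.53 (adjusted p = 0.00214) and vet-6 by 0.53 (adjusted p = 0.0309), the latter lost without any of 4 single libraries. No change was called in vet-1 (0.21, adjusted p = 0.3) or end-1 (0.35, adjusted p = 0.298).

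**Figure D3:**
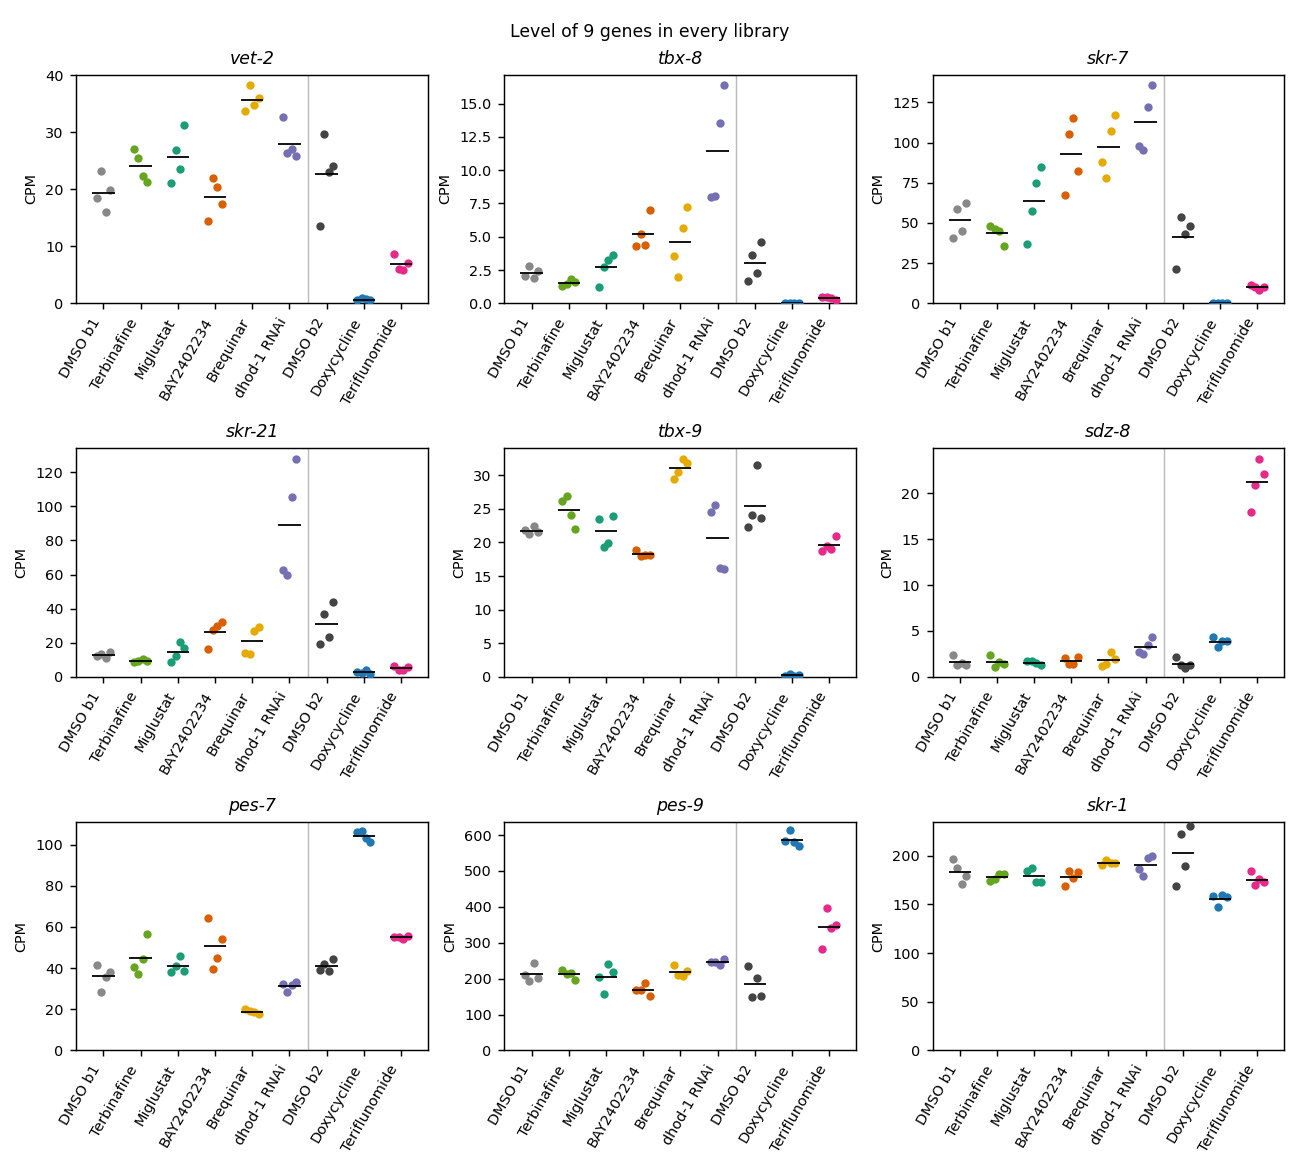
CPM in each library (points) of 9 genes in the 9 groups, with DMSO shown for each batch (b1, b2). In vet-2 the Brequinar points lie above those of DMSO, in skr-21 and tbx-8 the dhod-1 RNAi points do, and under Doxycycline vet-2, tbx-8, tbx-9, skr-7 and skr-21 lie near 0 while pes-7 and pes-9 lie above DMSO.

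Most of these genes were lower under Doxycycline, several of them without any count. Of 56 genes tested in batch 2, 41 were lower (73.2%, where 40.2% of all 15695 genes tested were) and 12 higher (21.4%, where 44.8% of all genes were). The median was -5.57, or -5.36 with genes at 0 counts in a group set to their bound, against 0.23 for all genes. A gene can pass the filter through its DMSO level alone, so the genes tested lean towards falls. Without the filter 87 genes gave 64 lower and 11 higher, beside 6930 lower and 7284 higher of all 24337 genes. Of the 89 genes, 24 had 0 counts over the 4 Doxycycline libraries, against 3 over the 4 DMSO libraries. In RNA of whole worms, fewer cells of a type and less RNA per cell cannot be told apart. DMSO replicate 1 of batch 2 had lower levels than the other 3 of many of these genes. Without it 59 of 62 genes tested were called, 52 of them among the 53. The share of all genes called was then 86.9%, against 84.9% with it.

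The very early transcripts under Doxycycline were near the limit of detection. For vet-1 there were 3 counts over the 4 Doxycycline libraries and 827 over the DMSO libraries, 281 times lower (95% counting interval 95.7 to 1363). In vet-2 the Doxycycline libraries were at 0.525, 0.879, 0.713 and 0.537 CPM against 13.6, 29.7, 23.1 and 24.1 CPM in DMSO, a fall of 5.08 (SE 0.29, adjusted p = 6.18e-09). In vet-6 they were at 0.0954, 0.155, 0.143 and 0.146 CPM against 7.97, 19.4, 15.3 and 14.8 CPM (-6.67, SE 0.41, adjusted p = 1.36e-08). Summed, the class made 0.835 CPM under Doxycycline and 47.2 CPM in DMSO.

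Of 17 sdz genes tested under Doxycycline, 13 fell and 3 rose. With 0 counts in the Doxycycline libraries, sdz-30 was at least 215-fold lower (633 counts in DMSO), sdz-14 at least 188-fold lower (553 counts) and sdz-21 at least 77-fold lower (227 counts), with a floor of 3 counts over the 4 libraries. In sdz-28 the Doxycycline libraries were at 0.191, 0.155, 0.190 and 0.195 CPM against 3.96, 13.1, 9.003 and 11.3 CPM, a fall of 5.63 (SE 0.45, adjusted p = 1.61e-07). The genes that rose were sdz-24, sdz-35 and sdz-8. In sdz-8 the values were 4.29, 3.26, 3.90 and 3.90 CPM against 2.16, 1.25, 0.977 and 1.28 CPM (1.43, SE 0.22, adjusted p = 7.27e-05). In sdz-24 they were 53.9, 37.97, 57.3 and 49.7 CPM against 22.7, 6.08, 5.04 and 6.55 CPM (2.3, adjusted p = 0.000547), and the value without DMSO replicate 1 was 3.07.

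Most T-box genes fell under Doxycycline, 7 of 8 tested. The embryonic pair tbx-8 and tbx-9 fell together. No count of tbx-8 was found in the Doxycycline libraries, against 1.71, 3.62, 2.26 and 4.63 CPM in DMSO (247 counts), at least 83.8-fold lower. In tbx-9 the Doxycycline libraries were at 0.191, 0.362, 0.190 and 0.342 CPM against 22.4, 24.1, 31.6 and 23.6 CPM, a fall of 6.53 (SE 0.21, adjusted p = 1.07e-10). For tbx-38 the ratio was 77.3 times lower (95% counting interval 13.5 to 3094). In tbx-33 the fall was 5.89 (adjusted p = 7.34e-10) and in tbx-36 it was 5.69 (adjusted p = 2.31e-09), without overlap of libraries. The fall of tbx-2 was 0.62 (adjusted p = 0.0176) and was lost without DMSO replicate 2 (adjusted p = 0.0502), DMSO replicate 4 (adjusted p = 0.0589) or Doxycycline replicate 2 (adjusted p = 0.0532) and with the stricter filter (-0.39, adjusted p = 0.104). The rise among T-box genes was that of tbx-34, at 13.9, 18.1, 11.8 and 16.2 CPM against 7.67, 1.16, 1.08 and 0.985 CPM (2.46, adjusted p = 0.00269), or 3.79 without DMSO replicate 1.

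Of the endoderm and mesoderm regulators, end-1 had 3 counts over the 4 Doxycycline libraries and 59 over the DMSO libraries, 20 times lower (95% counting interval 6.52 to 99.8). For end-3 there were 8 counts against 33. The ratios of tbx-35 (6.11 times lower, 95% counting interval 0.74 to 281) and med-2 (4.07, 0.40 to 200) had intervals that include no difference. None of these 4 genes passed the filter in batch 2.

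The skr genes under Doxycycline ran from loss to gain, with 14 of 19 lower and 3 higher. In skr-7 the libraries were at 0.0477, 0.259, 0.0951 and 0.0976 CPM against 21.1, 53.8, 43.3 and 47.8 CPM in DMSO, a fall of 8.33 (SE 0.42, adjusted p = 2.36e-09). In skr-8 there was 1 count against 1467, 1493 times lower (95% counting interval 268 to 59003), and in skr-14 the ratio was 440 times lower (150 to 2134). The core adaptor skr-2 was at 37.4, 44.4, 37.0 and 42.7 CPM against 153.1, 173.4, 177.8 and 169.0 CPM, a fall of 2.06 (SE 0.07, adjusted p = 1.62e-10), while skr-1 fell by 0.38 (adjusted p = 0.00145), with 158.9, 147.7, 160.0 and 157.3 CPM against 169.2, 222.1, 189.3 and 230.9 CPM. The stricter count filter, with its own scaling, put skr-1 at -0.15 (adjusted p = 0.113). Of the genes that rose, skr-3 was at 90.3, 77.9, 84.8 and 75.7 CPM against 24.9, 45.2, 44.7 and 45.8 CPM (1.03, SE 0.17, adjusted p = 0.000158). The rise of skr-4 was 0.68 (adjusted p = 0.000858). That of skr-5 was 1.05 (adjusted p = 0.0376) and was lost without any of 6 of the 8 libraries (DMSO replicates 1, 2 and 3 and Doxycycline replicates 2, 3 and 4, adjusted p up to 0.119). It was lost as well with DESeq2 (0.97, adjusted p = 0.167), with its size factors in edgeR, without the filter, with those groups alone and with a replicate block (adjusted p = 0.0562). All 3 act in the intracellular pathogen response.

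The pes genes were split under Doxycycline, with 5 of 9 higher and 4 lower and a median of 0.76. The early zygotic transcript pes-10 had 0 counts against 326, at least 111-fold lower, and the forkhead gene pes-1 was 214 times lower (95% counting interval 37.9 to 8480). No count of pes-2.1/WBGene00003977 was found against 831 in DMSO, at least 282-fold lower. The rises were in pes-7, pes-4, pes-9, pes-23 and pes-8. In pes-7 the Doxycycline libraries were at 106.0, 106.7, 103.4 and 101.3 CPM against 38.9, 42.04, 38.6 and 44.2 CPM (1.35, SE 0.05, adjusted p = 2.51e-10). In pes-9 they were at 583.8, 614.4, 581.2 and 568.7 CPM against 234.9, 150.0, 202.2 and 151.5 CPM (1.67, SE 0.15, adjusted p = 4.61e-07). Neither gene had overlapping groups. The rise of pes-8 was 2.92 (adjusted p = 0.00339), or 4.57 without DMSO replicate 1, whose 17.1 CPM stood above the 1.38 to 2.17 CPM of the others.

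**Figure D4:**
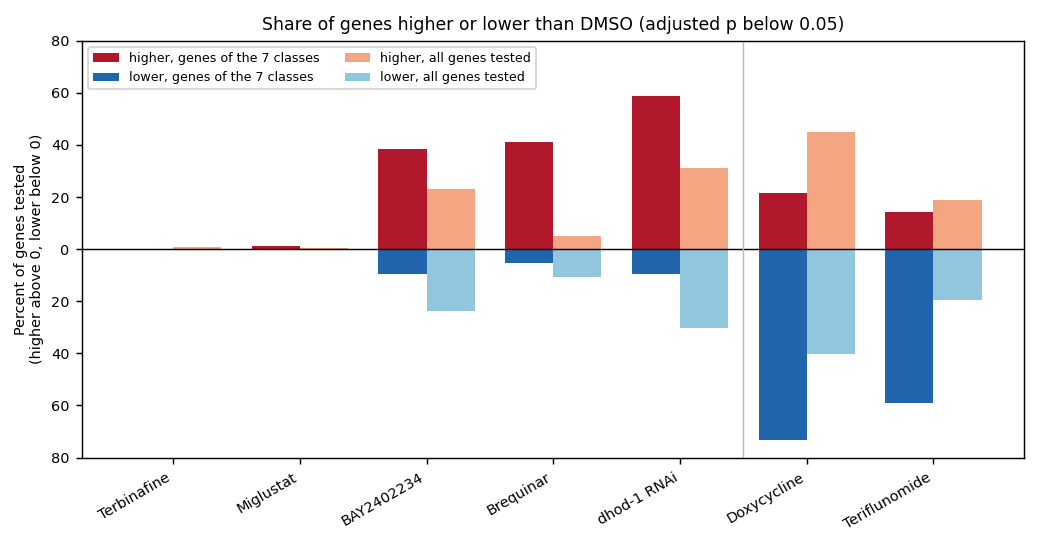
Percent of genes called higher (bars above 0) and lower (bars below 0) in each comparison, for the genes of the 7 classes and for all genes tested. Under Doxycycline 73.2% of the genes of these classes were lower against 40.2% of all genes, and under Brequinar 41.1% were higher against 5.03%.

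Under Teriflunomide these genes were lower as well, though fewer were without counts. Of 56 tested, 33 were lower (58.9%, where 19.7% of all genes were) and 8 higher (14.3%, where 19% of all genes were), with a median of -0.84 against -0.02 for all genes. Without the filter, 45 of 87 were lower and 7 higher, beside 2965 lower and 2789 higher of all 24337 genes. By class, 11 of 17 sdz genes fell and 3 rose, all 3 vet genes fell, 4 of 8 tbx genes fell, 4 of 9 pes genes fell and 3 rose, and 11 of 19 skr genes fell and 2 rose. Of the 89 genes, 7 had 0 counts. Without DMSO replicate 1 of batch 2, 54 of 62 genes tested were called, including all 41 of the calls made with it. The share of all genes called was then 57.2%, against 38.8% with it.

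The vet genes fell under Teriflunomide without overlap of libraries. In vet-1 the libraries were at 2.13, 1.35, 1.48 and 1.75 CPM against 5.21, 13.5, 10.9 and 11.5 CPM in DMSO (-2.61, SE 0.37, adjusted p = 0.000256). In vet-2 they were at 8.66, 6.10, 5.87 and 6.996 CPM (-1.71, SE 0.24, adjusted p = 0.000242), and in vet-6 at 2.87, 1.46, 1.32 and 2.295 CPM (-2.85, SE 0.31, adjusted p = 4.93e-05). The early transcript pes-10 fell by 3.01 (adjusted p = 0.000237), from between 2.46 and 5.35 CPM to between 0.378 and 0.744 CPM.

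Among the other classes under Teriflunomide, the largest falls were those of sdz-21 (-3.43, adjusted p = 0.000173), sdz-28 (-3.35, adjusted p = 5.66e-05), skr-9 (-3.27, adjusted p = 0.0006), pes-2.1/WBGene00003977 (-3.21, adjusted p = 0.0012), skr-8 (-3.19, adjusted p = 6.4e-05) and sdz-30 (-3.18, adjusted p = 0.000213). The T-box gene tbx-8 was at 0.478, 0.486, 0.370 and 0.273 CPM, all below the DMSO libraries (-2.91, SE 0.39, adjusted p = 0.000597). Its neighbour tbx-9 was at 18.8, 19.5, 18.98 and 20.99 CPM and missed the threshold (-0.38, adjusted p = 0.0649). It passed without DMSO replicate 1 (-0.43, adjusted p = 0.014). In skr-7 the libraries were at 11.1, 9.94, 8.57 and 9.89 CPM (-2.07, SE 0.28, adjusted p = 0.000194), and in skr-21 at 6.43, 4.05, 3.86 and 5.52 CPM (-2.64, SE 0.31, adjusted p = 7.54e-05). Of the core adaptors, skr-2 fell by 0.27 (adjusted p = 0.0106), a call lost without Teriflunomide replicate 3 (-0.23, adjusted p = 0.0666). For skr-1 the value was -0.21 (adjusted p = 0.0718), and it passed without DMSO replicate 1 (-0.29, adjusted p = 0.00346). The forkhead gene pes-1 also passed without that library (-0.67, adjusted p = 0.0451). Counts of end-1 were 10 against 59 in DMSO and those of end-3 were 14 against 33. With 0 counts, tbx-35 was at least 1.85-fold lower than its 6 counts in DMSO.

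The rises under Teriflunomide were led by sdz-35 and sdz-8. In sdz-8 the libraries were at 17.9, 20.95, 23.8 and 22.1 CPM against 0.977 to 2.16 CPM in DMSO (3.90, SE 0.23, adjusted p = 3.57e-07). In sdz-35 they were at 5.10, 3.83, 6.50 and 2.79 CPM against 0.148 to 0.351 CPM (4.09, SE 0.39, adjusted p = 1.65e-05). The groups did not overlap in either gene. The DMSO level of sdz-35 lay under what the filter asks, so sdz-35 was tested through groups where it was high. Its place among the rises leans on that. The Skp1 relatives skr-3 and skr-4 rose by 0.82 (adjusted p = 0.00325) and 1.04 (adjusted p = 0.000232). The others were pes-23 (1.65, adjusted p = 0.000618), pes-9 (0.89, adjusted p = 0.00061), pes-7 (0.42, adjusted p = 0.000103) and sdz-27 (0.19).

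Compared directly, Doxycycline left 42 of the 56 genes lower than Teriflunomide did (75%, where 37.9% of all genes were lower) and 8 higher (14.3%, where 36.3% of all genes were), with a median of -3.35, or -2.89 with bounds, against 0.22 for all genes. Without the filter, 47 of 87 were lower and 7 higher, beside 6223 lower and 5330 higher of all 24337 genes. The T-box genes tbx-9 (-6.15, SE 0.21, adjusted p = 1.89e-10), tbx-33 (-5.55, adjusted p = 1.4e-09) and tbx-36 (-5.54, adjusted p = 3.27e-09) had some of the largest differences. The Teriflunomide libraries of tbx-36 were at 15.9, 14.4, 12.9 and 15.3 CPM and its DMSO libraries at 15.5, 14.7, 19.1 and 15.3 CPM. The early genes vet-2 (-3.37, adjusted p = 2.62e-07) and skr-7 (-6.26, adjusted p = 3.52e-08) were lower under Doxycycline too, and tbx-8 was at least 11-fold lower. All 39 maternal embryo factors, all 38 oocyte and germ line genes and all 16 eggshell genes were lower in this contrast too. So were sdz-8 (-2.46, adjusted p = 4.8e-07) and sdz-35 (-1.97, adjusted p = 0.000177), which rose against DMSO under both drugs. Higher under Doxycycline were pes-8 (2.69, adjusted p = 0.00641), pes-4 (1.22, adjusted p = 2.61e-06) and pes-7 (0.92, adjusted p = 6.45e-09). In pes-4 the Doxycycline libraries were at 62.2, 60.4, 65.5 and 65.7 CPM and the Teriflunomide libraries at 27.2, 27.6, 29.2 and 25.2 CPM.

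The 3 dihydroorotate dehydrogenase inhibitors can be set side by side for the same genes, with the limit that Teriflunomide was given at 250 µM, in the other batch and against another DMSO group. Mean levels of vet-1 were 6.95 CPM in DMSO, 7.19 CPM under BAY2402234, 15.8 CPM under Brequinar and 8.04 CPM under dhod-1 RNAi in batch 1, and 10.3 CPM in DMSO and 1.68 CPM under Teriflunomide in batch 2. Mean levels of skr-7 were 51.8 CPM in DMSO, 92.7 CPM under BAY2402234, 97.6 CPM under Brequinar and 112.6 CPM under dhod-1 RNAi, and 41.5 CPM in DMSO and 9.88 CPM under Teriflunomide in batch 2. The differences between the batches were not tested.

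**Figure D5:**
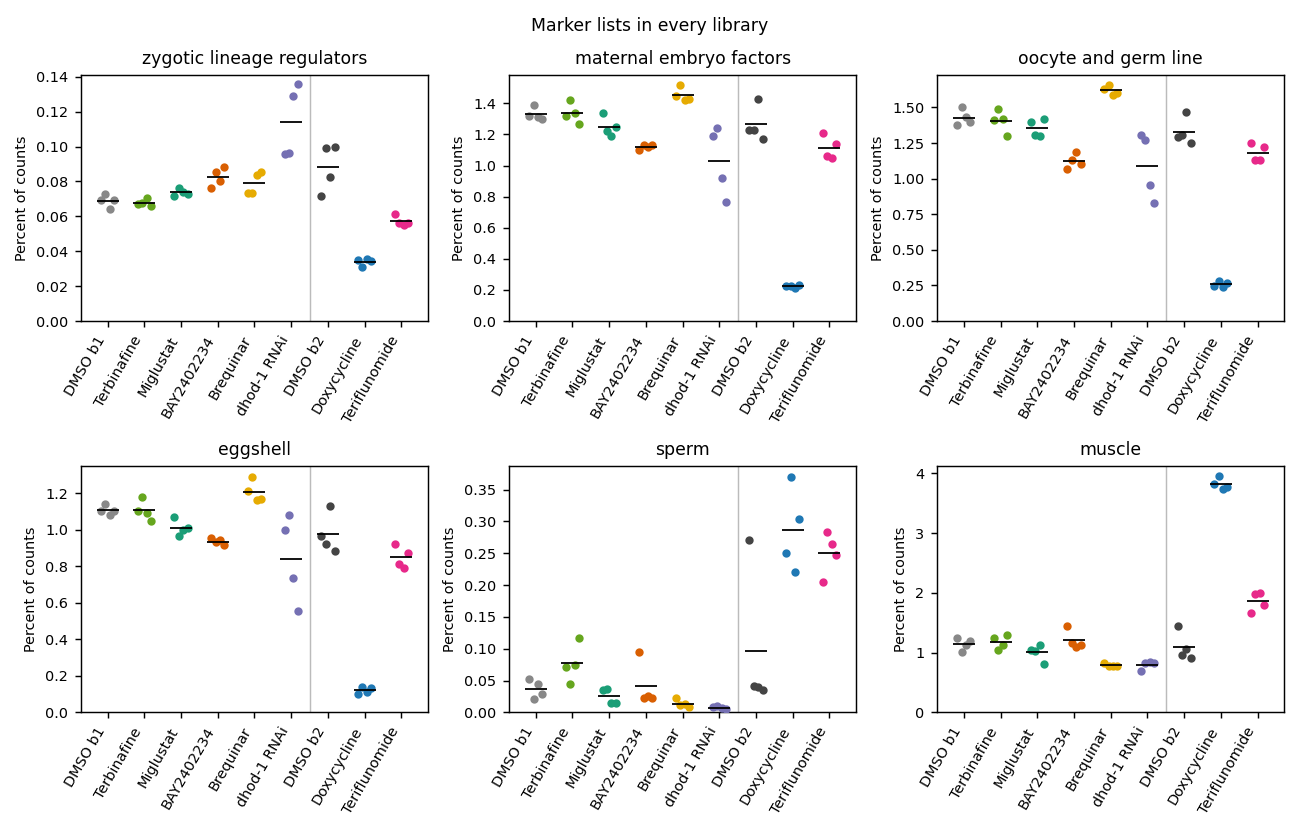
Percent of all counts in each library (points) taken by 6 marker lists in the 9 groups. The maternal, oocyte and eggshell lists are lowest under Doxycycline, and the zygotic lineage list is highest under dhod-1 RNAi.

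Markers of embryos, germ line and somatic tissues, none of them among the 89 genes, were called in several comparisons. Lists can share genes: elt-2 is in both the zygotic lineage and the intestine list, so their counts are not independent. Of all genes tested, 23.2% were higher and 23.6% lower under BAY2402234, and 5.03% and 10.6% under Brequinar. The shares were 31.3% and 30.1% under dhod-1 RNAi, 44.8% and 40.2% under Doxycycline and 19% and 19.7% under Teriflunomide. They stand beside the counts of every list below. The list of zygotic lineage regulators (41 tested in batch 1 and 43 in batch 2) had 0 changes under Terbinafine and Miglustat, 26 higher and 3 lower under BAY2402234, 10 higher and 1 lower under Brequinar, 31 higher and 3 lower under dhod-1 RNAi, 5 higher and 32 lower under Doxycycline and 1 higher and 32 lower under Teriflunomide. Its medians were 0.77, 0.45, 1.61, -1.69 and -1.48 in the last 5. Its share of counts was 0.0643 to 0.0726% in the DMSO libraries of batch 1 and 0.0957, 0.0965, 0.129 and 0.136% under dhod-1 RNAi, the higher values again in replicates 3 and 4. In batch 2 the mean share was 0.0884% in DMSO, 0.034% under Doxycycline and 0.0572% under Teriflunomide. In DMSO of batch 1, 1 of its genes was at 0 counts, and under Doxycycline 4 were.

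The maternal embryo factors went mainly the other way from the zygotic list under BAY2402234 and dhod-1 RNAi, while both lists mainly fell under Doxycycline. Of 39 maternal embryo factors, 0 rose and 26 fell under BAY2402234, 1 rose under Brequinar, 4 rose and 27 fell under dhod-1 RNAi, all 39 fell under Doxycycline (median -2.73) and 10 fell under Teriflunomide (median -0.11). Of 38 oocyte and germ line genes, 27 fell under BAY2402234, 6 rose under Brequinar, 5 rose and 29 fell under dhod-1 RNAi, 37 fell under Doxycycline and 3 under Teriflunomide. Of 16 eggshell genes, the falls were 8, 0, 14, 16 and 0 in the same order, with no rise. The mean eggshell share of counts was 0.976% in DMSO of batch 2, 0.121% under Doxycycline and 0.849% under Teriflunomide. The mean oocyte and germ line share was 1.43% in DMSO and 1.62% under Brequinar. No gene of the maternal, oocyte or eggshell lists was at 0 in any group. The part of these shifts in the changes of the 89 genes was not tested.

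Sperm genes (50 tested in batch 1 and 54 in batch 2) were 3 higher and 1 lower under BAY2402234, 15 lower under Brequinar, 2 higher and 41 lower under dhod-1 RNAi, 34 higher and 1 lower under Doxycycline and 6 higher under Teriflunomide. Their share was 0.271% in DMSO replicate 1 of batch 2 and 0.0356 to 0.0408% in the other 3. In that library pes-8, tbx-34 and sdz-24 were high as well. Muscle genes (26) were 2 higher and 6 lower under BAY2402234, 20 lower under Brequinar, 3 higher and 20 lower under dhod-1 RNAi, 25 higher and 1 lower under Doxycycline and 23 higher under Teriflunomide. Intestine genes (23) were 8 higher and 4 lower, 10 lower, 14 higher, 14 higher and 3 lower, and 11 higher and 5 lower in the same order. Neuron genes (30) were 12 higher, 6 lower, 7 higher and 9 lower, 26 higher and 3 lower, and 12 higher and 2 lower. Hypodermis and molt genes (32 in batch 1, 34 in batch 2) were 5 higher and 1 lower, 2 higher and 4 lower, 13 higher and 7 lower, 9 higher and 12 lower, and 2 higher and 16 lower. Several of these counts lay near or below the share of all genes. Among them were muscle genes under BAY2402234, neuron genes under dhod-1 RNAi and hypodermis and molt genes under Doxycycline. Under Terbinafine, 1 intestine and 1 hypodermis gene were higher and no gene of the other lists was called.

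Genes of cullin ubiquitin ligases, SCF partners of the skr proteins among them, and the pathogen response genes were followed in a pair of lists. These lists share genes, fbxa-158 and rcs-1 among them, so some rises below are counted in both. The ligase list held cullins, RING proteins, F-box proteins and regulators, and also genes of cullin ligases other than SCF, such as zif-1. Of its 30 genes tested, 3 rose and 16 fell under BAY2402234, 2 rose under Brequinar, and 6 rose and 11 fell under dhod-1 RNAi. Under Doxycycline 3 rose and 25 fell, and under Teriflunomide 3 rose and 12 fell. Under Doxycycline zif-1, which encodes a SOCS-box protein that works with a cullin to clear germ line proteins from the embryo's somatic cells, fell by 3.71, and rbx-1, which encodes the RING subunit, fell by 1.87. The cullin gene cul-1 was lower under BAY2402234 than under Brequinar (-0.59). Of the intracellular pathogen response genes, 17 of 22 rose and 2 fell under BAY2402234, 1 rose and 4 fell under Brequinar, 15 rose and 1 fell under dhod-1 RNAi, 10 of 20 rose and 1 fell under Doxycycline and 12 rose and 2 fell under Teriflunomide. The 10 of 20 under Doxycycline stand beside 44.8% of all genes that were higher in that comparison. Under Miglustat 1 of them fell. Among the 3 Skp1 relatives of that response, skr-3 rose in 4 of these 5 comparisons, and under Brequinar it was not called.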

How the data were processed

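RNA-seq raw counts per gene, as the authors deposited them, were used for 36 libraries and 27782 identifiers (BGISEQ-500, 4 biological replicates a group per the labels). Per the submitters' processing notes, the tools were FastQC, STAR 2.7.3a and DESeq2 1.40.2 and the build WBcel235; the counting tool, strandedness and annotation release are not given in the sources used here. Symbols matched 25676 identifiers and gene models of WBcel235 matched 27563. The genes and lists were chosen with earlier results of these data known.

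Genes passing edgeR's filterByExpr (minimum count 10) were scaled by TMM, and all groups of a batch entered one fit of edgeR 4.0.16 (R 4.3.3, limma 3.58.1, robust quasi-likelihood test). Every adjusted p is from edgeR's quasi-likelihood test unless DESeq2 is named, adjusted by Benjamini-Hochberg over 15142 genes in batch 1 and 15695 in batch 2, with a threshold of 0.05. CPM values are counts divided by the TMM-scaled library size and set to a common size, and fold changes are log2. Approximate 95% intervals use the log2 fold change, its SE and the normal distribution. For 0 counts a bound was set against a floor of 3 counts over a group's 4 libraries, and for 1 to 3 counts a ratio has an exact 95% interval. Bounds and these counting intervals cover counting error only.

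Named genes were, in each comparison, up to 6 largest rises and 6 largest falls among called genes whose mean reached 0.5 CPM in either group, a fixed panel of developmental regulators and skr-1 to skr-5, and up to 2 genes a list. Others named were chosen after their values were seen. The 11 lists were compiled from general knowledge; uba-3, cej-1, pals-12, pals-36, ssp-11, elt-5 and a few further names were not matched. Libraries of a group differed by more than sampling noise (lowest chi-square per degree of freedom 3.73). Alternatives were DESeq2 1.42.0, its size factors in edgeR, no filter, a stricter minimum count of 50, the compared groups alone, a replicate block and leaving out each library. Scripts were tested on simulated data. Python 3.11.15, pandas 2.3.3, scipy 1.17.1 and matplotlib 3.10.9 were used. No sequences are shown, since none were used here.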

Additional observations from a re-analysis of the deposited data

Results flagged for a closer look

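Over 193 combinations of gene and group, 12 had 1 library farther from the other 3 than Dixon's 95% critical value allows, and chance gives about 1 in 20. The levels are in CPM. DMSO replicate 1 of batch 2 accounts for 4 of them: pes-8 was at 17.1 against 1.38 to 2.17 in the others, tbx-34 at 7.67 against 0.985 to 1.16, sdz-24 at 22.7 against 5.04 to 6.55, and skr-3 at 24.9 against 44.7 to 45.8. The same library held 0.271% of its counts in sperm genes against 0.0356 to 0.0408% in the others.

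In dhod-1 RNAi replicate 4, sdz-25/WBGene00019791 was at 2.39 against 1.16 to 1.2. In Terbinafine replicate 4, tbx-2 was at 9.03 against 5.79 to 6.17 and skr-2 at 154 against 171 to 174. In Miglustat replicate 4, tbx-38 was at 0.992 against 0.588 to 0.613 and pes-1 at 7 against 3.79 to 4.14. In DMSO replicate 2 of batch 1, tbx-2 was at 5 against 6.58 to 6.8. In BAY2402234 replicate 1, tbx-9 was at 18.9 against 18.1 to 18.2. In DMSO replicate 2 of batch 2, pes-1 was at 3.57 against 2.16 to 2.36.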

How the results depend on the processing

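Counts of called genes of these classes stayed within 1.5 times the reported count under the alternatives except as follows, and the cause of each change was not tested. For Miglustat, 1 gene became 0 with the stricter filter and with the compared groups alone, and 2 with DESeq2. For BAY2402234 against Brequinar, 34 became 20 with the stricter filter, and for Teriflunomide 41 became 27; the stricter filter tests fewer genes. For dhod-1 RNAi, 50 became 32 with RNAi replicates 1 and 2 alone, chosen after seeing the data. The share of all genes called went from 61.4% to 32.9% there. Leaving out each library gave 19 to 34 for Brequinar (reported 34), 25 to 36 for BAY2402234, 44 to 49 for dhod-1 RNAi, 25 to 36 for BAY2402234 against Brequinar, 51 to 59 for Doxycycline, 38 to 54 for Teriflunomide, 48 to 51 for Doxycycline against Teriflunomide, 0 for Terbinafine and 1 for Miglustat. No named gene that was called in a comparison changed direction under any alternative run; genes that were not called did, such as tbx-9 under dhod-1 RNAi (-0.08, and 0.20 with replicates 1 and 2 alone). With DESeq2's size factors in edgeR, no called gene changed sign and the median of all genes under Doxycycline was 0.12 instead of 0.23. Replicate numbers did not pair the samples: deviations of same-numbered libraries correlated between -0.496 and 0.558, and BAY2402234 was the 1 treatment with all 4 correlations with DMSO above 0 (0.0438 to 0.558). A replicate block called 0 genes for Terbinafine, 1 for Miglustat, 35 for BAY2402234, 37 for Brequinar, 52 for dhod-1 RNAi, 33 for BAY2402234 against Brequinar, 52 for Doxycycline, 38 for Teriflunomide and 48 for Doxycycline against Teriflunomide. Depth limits end-1, end-3, med-1, med-2 and tbx-35, where a group had few or no counts.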
